A study of Homo sapiens with 2 samples.

Results

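The 9 genes described here encode proteins that license replication origins and build the replicative helicase of human cells: CDT1, MCM2, MCM4, MCM10, CDC45 and the 4 GINS subunits GINS1, GINS2, GINS3 and GINS4. All 9 were found among the 1947 genes of the deposited expression table. They were chosen by function and by measured values, since a gene entered the table only when the authors' test gave a p-value under 0.05 in the comparison described below. The levels and ratios of the 9 genes are therefore given as a description, without a test.

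In G1 phase the origin recognition complex and CDC6 mark origins, and CDT1 brings the MCM2-7 ring to them, which is called licensing. In S phase the kinase CDC7 with its partner DBF4, together with cyclin-dependent kinases, turns the loaded ring into an active helicase by adding CDC45 and the GINS tetramer, and MCM10 helps the assembled helicase to open the DNA. The active form is named CMG after CDC45, MCM and GINS. Many of these genes are transcribed under E2F factors at the transition from G1 to S phase, and their RNA is used as a sign of proliferation in tumours, prostate cancer included.

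Polyadenylated RNA was sequenced from C4-2 cells, an established human prostate cancer line derived from LNCaP. Cells at passage 10 to 15 were grown in RPMI-1640 with 10% serum, replated and given 24 hours to attach, and the medium was then changed to one with vehicle or with ebastine, a histamine H1 receptor antagonist. The sources used here state neither the dose nor the time of exposure. There was 1 library per group, so there was no spread between replicates, and the series title names EZH2 as the target of the drug.

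Levels are FPKM, fragments per kilobase of transcript scaled to the size of the library. No source used here states how that size was set. The division by transcript length lets levels of different genes be set side by side. The ratio used is log2((ebastine FPKM + 1)/(vehicle FPKM + 1)), and fold values come from it. The pseudocount of 1 makes the difference of a low gene look smaller. Depth is unknown, and no counting interval can be given. In a culture, fewer cycling cells and less RNA per cell cannot be told apart. Of 11 markers of prostate luminal cells 6 were in the table, 3 lower in ebastine (KLK3, KLK2 and TMPRSS2, the last at 0.0081 on the log2 scale after the centring described further on) and 3 higher (FOLH1, STEAP2 and ACPP). KLK3 stood at 2476 FPKM in vehicle and 1599 FPKM in ebastine, and FOLH1 at 495 and 840.4 FPKM. Of 9 basal, stromal and leukocyte markers 0 were in the table. Only genes past the authors' p-value limit are listed, so absence does not show that a marker was not expressed.

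All 9 genes had a lower level in the ebastine library, by modest amounts. Of all listed genes, 1768 averaged 1 FPKM or more over both libraries, and 57.0% of these were lower in ebastine. The median of the 9 ratios was -0.41, a 1.33-fold difference, and the median over the 1768 genes was -0.32. Only CDC45 was at least 1.5-fold lower, 1 of 9 genes, while 18.6% of the 1768 genes were. By the q-values in the authors' deposited table, 4 of the 9 genes were lower at a limit of 0.05, namely CDC45, GINS4, CDT1 and GINS1, and 27.0% of the 1768 genes were. Since the genes were taken from this same comparison, nothing is read from these counts. The ratios of the 9 genes lay between percentile 15.0 and percentile 51.9 of the 1768 genes, so none was among the lowest ratios of the table.

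**Figure D1:**
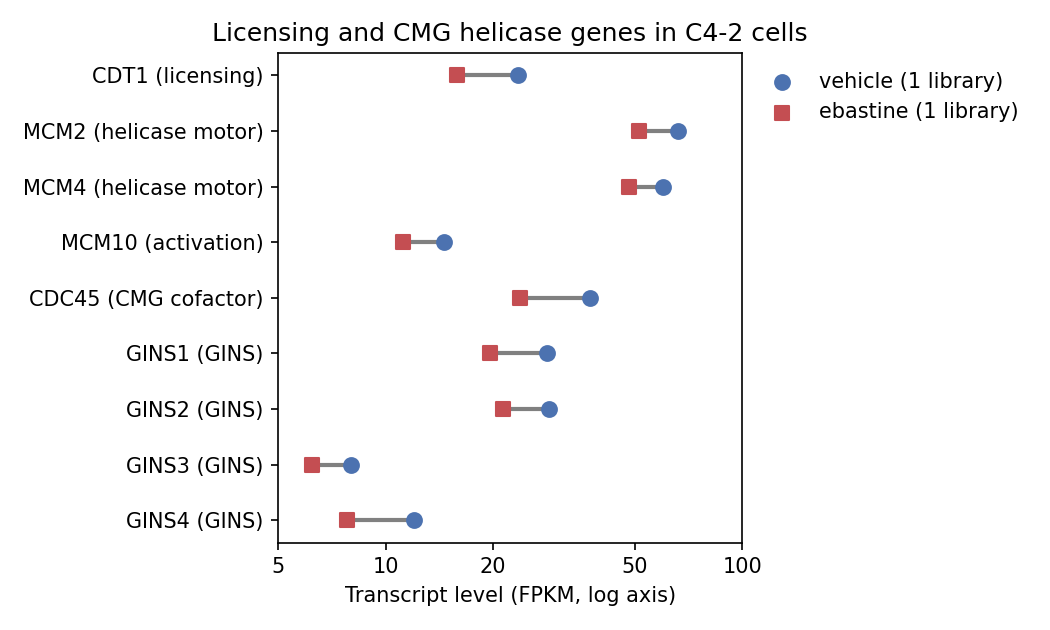
Level of each of the 9 genes in the vehicle library (circle) and the ebastine library (square), in FPKM on a log axis, 1 library per group and no error bars. Every square lies to the left of its circle, and the line between them is longest for CDC45 (37.5 and 23.8 FPKM) and GINS4 (12.0 and 7.79 FPKM).

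The order of the 9 genes by level was the same in both libraries. MCM2 was highest, followed by MCM4, CDC45, GINS2, GINS1, CDT1, MCM10, GINS4 and GINS3. The highest level was 8.31 times the lowest in vehicle and 8.23 times in ebastine. With 1 library per group, whether neighbours in this order differ beyond their spread cannot be told. GINS2 and GINS1 were the closest pair in vehicle, at 28.7 and 28.4 FPKM.

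CDT1, the loader that licenses origins, stood at 23.5 FPKM in vehicle and 15.9 FPKM in ebastine. Its ratio was -0.54, a 1.46-fold difference, and its q-value was 0.00595 in the authors' deposited table. CDT1 lies on chromosome 16, from 88870186 to 88875666 in hg19. Geminin (GMNN), the protein that binds and inhibits CDT1, was also lower, at 56.2 and 39.7 FPKM. The level of GMNN was 2.39 times that of CDT1 in vehicle and 2.50 times in ebastine, and this quotient does not depend on how the libraries were scaled.

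Sequence upstream of the transcript starts is shown because E2F factors are known regulators of this gene class. RefSeq promoters (GRCh38.p14) were at hand for 7 of the 9 genes, with 3 starts for CDC45 and 1 for each of the others, which makes 9 windows of 250 bases. An E2F motif was taken as TTTCGCGC, TTTGGCGC, TTTCCCGC or TTTGCCGC on either strand. Other letter forms were not searched, so a window without a match is not shown to lack an E2F site. It was found in 2 of the 9 windows, those of CDT1 and GINS2, and in 2.79% of all 35116 promoter windows. In both genes the letters were TTTCCCGC on the minus strand of the gene, beginning 35 bases before the start of CDT1 and 31 bases before that of GINS2, with no other searched motif overlapping. The stretches below are 30 bases each, 5′ to 3′ on the strand of the gene, with the match in capitals, read here as its reverse complement. They lie at chr16:88803743-88803772 (plus strand, CDT1) and chr16:85688967-85688996 (minus strand, GINS2), and both overlap a GENCODE 29 exon of the gene itself.
CDT1: ccagggcgcccGCGGGAAAtttggcgggaa
GINS2: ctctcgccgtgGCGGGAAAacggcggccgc
In both stretches the capitals are the same run, and the flanking bases differ.

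The CCAAT box, searched as CCAAT on either strand, is the binding motif of the factor NF-Y. It was present in 5 of the 9 windows, from 4 genes (CDC45, GINS1, GINS2 and MCM10). The share was 32.0% of all windows and 39.0% of windows of listed genes averaging 1 FPKM or more. The 2 CDC45 windows with a match overlap each other and share matches. MCM10 and GINS1 are printed as examples with the CCAAT box in capitals, MCM10 at chr10:13161308-13161553 and GINS1 at chr20:25407423-25407672, both on the plus strand and outside annotated untranslated regions. In MCM10 the boxes begin 118 and 105 bases before the start, and in GINS1 the box is on the minus strand, 13 bases before the start.
MCM10: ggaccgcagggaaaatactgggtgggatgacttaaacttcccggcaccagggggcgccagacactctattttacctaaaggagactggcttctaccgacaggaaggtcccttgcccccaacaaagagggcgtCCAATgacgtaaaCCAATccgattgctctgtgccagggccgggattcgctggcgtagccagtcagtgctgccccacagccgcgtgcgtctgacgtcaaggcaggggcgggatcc
GINS1: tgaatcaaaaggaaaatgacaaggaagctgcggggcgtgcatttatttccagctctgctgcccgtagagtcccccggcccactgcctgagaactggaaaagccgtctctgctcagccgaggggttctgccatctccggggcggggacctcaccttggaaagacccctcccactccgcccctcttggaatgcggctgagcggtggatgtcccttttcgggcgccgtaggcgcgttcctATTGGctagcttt
The CHR element of genes expressed late in the cell cycle, searched as TTTGAA or TTCGAA on either strand, was in 0 of the 9 windows, in 14.3% of all windows, and in 18 of 38 windows of the mitotic genes described further on. The E2F motif was in 3 of those 38. The CHR element was also in 0 of 18 windows of other licensing and firing genes and 0 of 7 of G1/S control. It was in 1 of 13 windows of replication fork genes and 2 of 8 of deoxynucleotide synthesis. For the E2F motif these lists gave, in that order, 3 of 18, 2 of 7, 3 of 13 and 1 of 8. For the CCAAT box they gave, in the same order, 10 of 18, 4 of 7, 5 of 13 and 5 of 8, and the mitotic genes 29 of 38. The lack of CHR and the presence of E2F and CCAAT matches were thus not particular to the 9 genes. A match is a description of the letters only, and no factor was measured at any of these sites. MCM2 and GINS3 had none of the 3 motifs in the window.

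**Figure D2:**
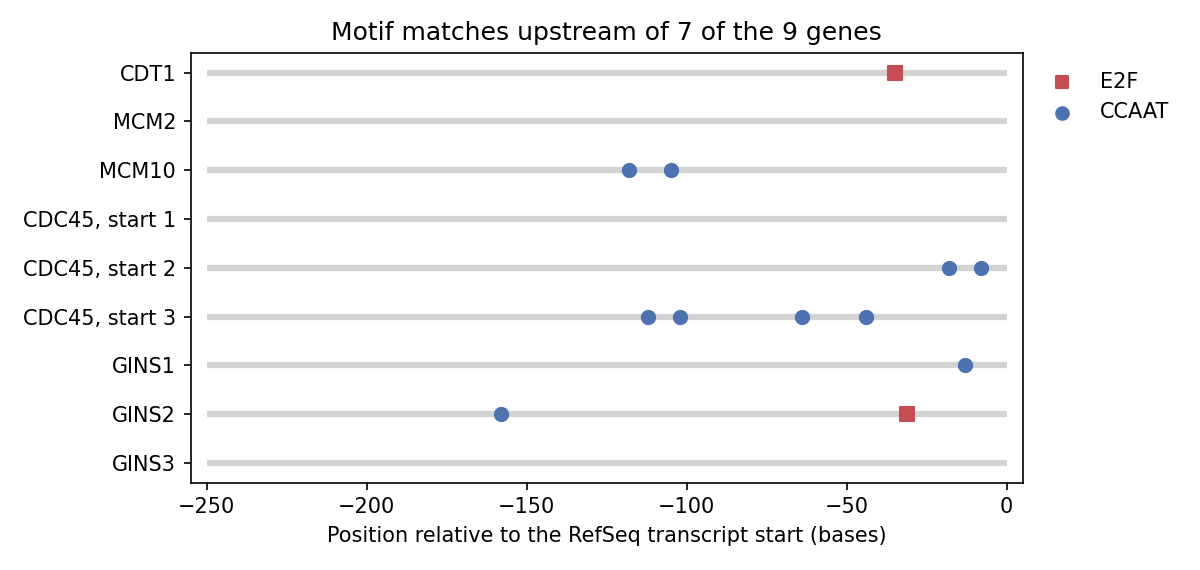
Motif matches in the 250 bases before each RefSeq transcript start of 7 of the 9 genes, with the position in bases before the start on the x axis and 1 grey line per start. E2F matches (squares) are seen at CDT1 and GINS2 near the start, and CCAAT boxes (circles) at MCM10, CDC45, GINS1 and GINS2.

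MCM2 and MCM4 are subunits of the hexameric ring that moves along the DNA. MCM2 stood at 66.2 FPKM in vehicle and 51.2 FPKM in ebastine, and MCM4 at 60.0 and 48.0 FPKM. Their ratios, -0.36 and -0.31, were among the 4 smallest in size of the 9 genes, and MCM4 kept 80.1% of its vehicle level. In the authors' deposited table their q-values were 0.137 and 0.237. MCM2 over MCM4 was 1.10 in vehicle and 1.07 in ebastine, so the pair stayed close to each other in level.

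MCM2 lies on chromosome 3, from 127317200 to 127341278 in hg19, and MCM4 on chromosome 8, from 48872763 to 48890719. In GENCODE 29, which is on another build, MCM2 overlaps the antisense gene AC023593.1 over 2331 bases. It also overlaps the start of TPRA1, on the opposite strand, over 45 bases. No source used here states the strand setting of the authors' counting, so reads of overlapping genes cannot be told apart. For MCM4 no overlapping gene was listed.

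Of the remaining ring subunits, MCM5 and MCM7 were in the table, and MCM3 and MCM6 were not used here. MCM7 was the highest of the listed ring genes, at 144 FPKM in vehicle and 95.1 FPKM in ebastine, a 1.51-fold difference. MCM5 stood at 42.1 and 34.3 FPKM, a 1.22-fold difference. The ring genes thus kept the order MCM7, MCM2, MCM4 and MCM5 in both libraries. MCM7 over MCM2 was 2.17 in vehicle and 1.86 in ebastine, so the levels of these ring genes lay closer together in ebastine.

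CDC45, which joins the ring and GINS at the moment of firing, had the lowest ratio of the 9 genes. It stood at 37.5 FPKM in vehicle and 23.8 FPKM in ebastine, which is 63.4% of the vehicle level without the pseudocount. With the pseudocount its ratio was -0.64. The q-value of CDC45 was 0.00334 according to the authors' deposited table. MCM2 over CDC45 was 1.77 in vehicle and 2.16 in ebastine. CDC45 lies on chromosome 22, from 19467414 to 19508135 in hg19.

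MCM10, a firing factor that binds the assembled helicase and DNA polymerase alpha, stood at 14.5 FPKM in vehicle and 11.2 FPKM in ebastine. Its ratio was -0.35, a 1.28-fold difference, with a q-value of 0.141 in the authors' deposited table. CDC45 over MCM10 was 2.58 in vehicle and 2.13 in ebastine. The locus of MCM10 is on chromosome 10, from 13203554 to 13253104 in hg19.

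The GINS complex holds its 4 subunits in equal numbers, but their RNA levels were unequal. GINS1 stood at 28.4 FPKM in vehicle and 19.6 FPKM in ebastine. GINS2 stood at 28.7 and 21.4 FPKM. Both were well above the other GINS genes in each library. GINS4 stood at 12.0 and 7.79 FPKM. GINS3 was the lowest of all 9 genes, at 7.97 and 6.23 FPKM. The highest GINS level was 3.60 times the lowest in vehicle and 3.43 times in ebastine.

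The 4 GINS genes also differed in the size of the difference. GINS4 and GINS1 were 1.48-fold and 1.43-fold lower, GINS2 1.33-fold and GINS3 1.24-fold. The q-values in the authors' deposited table were 0.00178 for GINS4, 0.0136 for GINS1, 0.105 for GINS2 and 0.330 for GINS3. GINS4 over GINS3 was 1.51 in vehicle and 1.251 in ebastine. GINS1 over GINS2 was 0.989 in vehicle and 0.915 in ebastine. No test of these differences between genes was possible with 1 library per group.

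In hg19, GINS1 lies on chromosome 20 from 25388323 to 25429191, GINS2 on chromosome 16 from 85711280 to 85722588, GINS3 on chromosome 16 from 58426298 to 58440048, and GINS4 on chromosome 8 from 41386725 to 41402565. In GENCODE 29 the antisense genes AC009630.1 and AC009630.2 overlap GINS4 over 10892 and 4664 bases. The antisense genes AC009118.1 and AC009118.2 overlap GINS3 over 810 and 655 bases. GINS3 also overlaps the small nuclear RNA genes RNU6-1110P and RNU6-269P over 101 and 97 bases. GINS2 overlaps the end of GSE1 by 7 bases. GINS1 had no overlapping gene.

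GINS3, with a p-value of 0.0450 in the authors' deposited table, and MCM4, with 0.0277, were the closest of the 9 genes to the limit that admitted genes to the table. Values of genes just outside it are not used here. The limit also leaves a gap in the ratios: the smallest absolute log2 ratio among the 1768 genes was 0.23. GINS3 and MCM4 had ratios above the median of the 1768 genes, and the other 7 genes lay below it. The side on which GINS3 lay depended on the pseudocount. With none it was just below the median, at -0.3558 against -0.3557, and with 5 FPKM also, at -0.208 against -0.206.

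**Figure D3:**
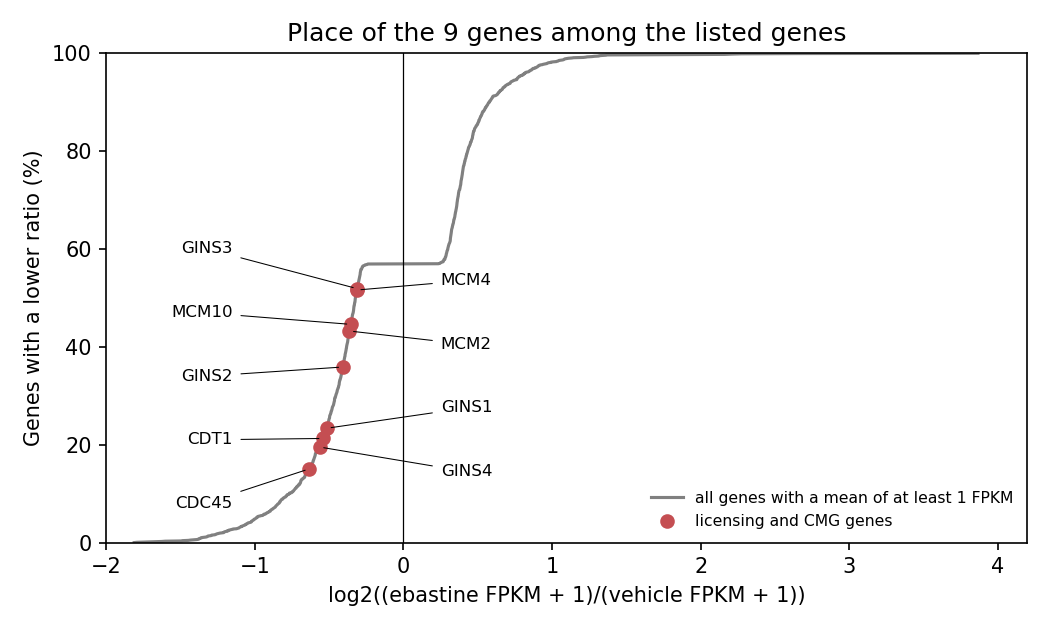
Share of the 1768 genes with a lower ratio (y axis, percent) against the log2 ratio of ebastine over vehicle with a pseudocount of 1 FPKM (x axis), with the 9 genes as points. The genes lie between CDC45 at percentile 15.0 and GINS3 at percentile 51.9, and the flat part around 0 is the range that the p-value limit removes.

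How far the 9 genes lay below 0 depended on the scaling of the libraries. Upper quartile rescaling, which multiplies the ebastine values by 1.15, left all 9 lower with a median of -0.21. That direction was fixed in advance. The rescaling moves a ratio by at most 0.205 on the log2 scale, and the smallest absolute ratio of the 1768 genes was 0.234. Centring, which sets the median ratio of listed genes averaging 10 FPKM or more to about 0, multiplies the ebastine values by 1.26, or 0.34 on the log2 scale. After it MCM4 stood at 0.015 on the log2 scale and the other 8 were still lower, with CDC45 at -0.31, GINS4 at -0.26, CDT1 at -0.22 and GINS1 at -0.19. MCM2, MCM10 and GINS3 then lay at -0.034, -0.044 and -0.018. Both rescalings were computed on a table with only 14.2% of the 13714 genes tested by the authors, and 0 of the 9 genes were at least 1.5-fold lower after either. Of the 1768 genes, 57.0% were lower after upper quartile rescaling and 52.5% after centring, and 10.4% and 6.90% were at least 1.5-fold lower.

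**Figure D4:**
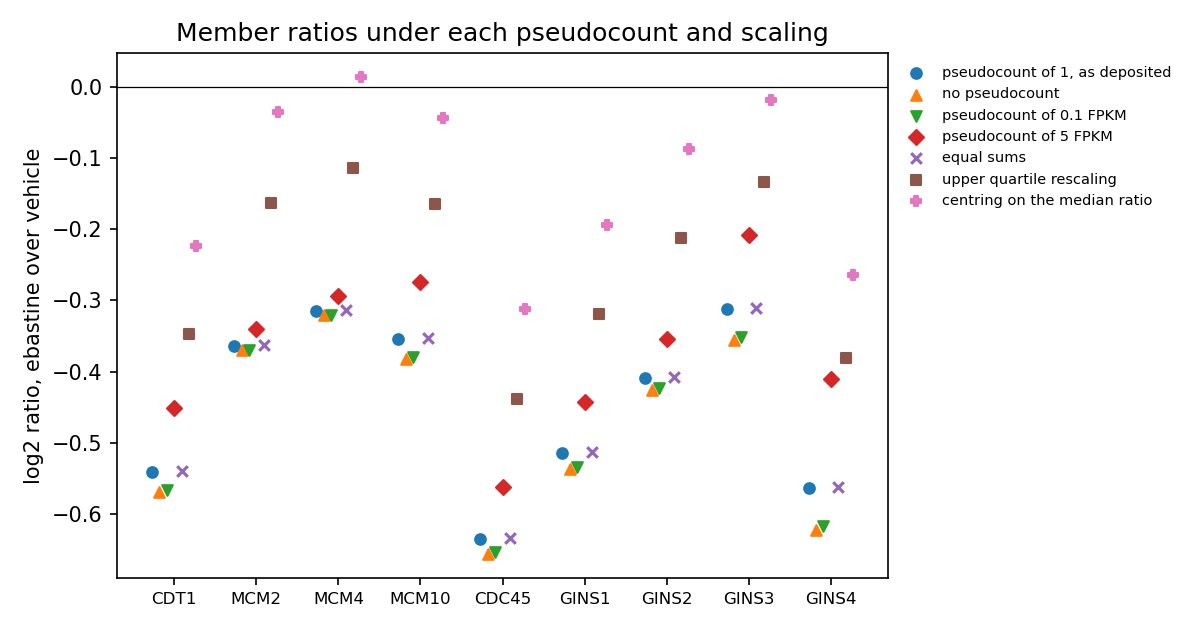
Log2 ratio of ebastine over vehicle for each of the 9 genes (y axis) under each pseudocount and scaling (symbols). CDC45, GINS4, CDT1 and GINS1 stay below the line at 0 under every setting drawn, and MCM4 crosses it after centring, at 0.015.

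Other genes of licensing and firing were also lower. Of 33 such genes 15 were in the table, all 15 were lower, 5 of them by at least 1.5-fold and 10 at a q-value limit of 0.05 by the authors' deposited table. Of the 1768 genes, 57.0% were lower, 18.6% by at least 1.5-fold and 27.0% at that q-value limit. The median ratio of the 15 was -0.54. After centring 14 of the 15 were lower, with MCM5 at 0.038 on the log2 scale. CDC7 and its activators DBF4 and DBF4B, the kinase that starts firing of the loaded ring, were the lowest. CDC7 stood at 25.4 and 15.3 FPKM, DBF4 at 19.8 and 12.1 FPKM and DBF4B at 5.69 and 3.39 FPKM. The replisome protein WDHD1 was 1.51-fold lower. The origin recognition subunits ORC1 and ORC6 stood at 6.91 and 5.19 FPKM and at 22.3 and 17.5 FPKM, and MCM8, a helicase of recombination, at 8.37 and 6.24 FPKM. The loader CDC6 was not used here.

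The 9 genes were set beside genes of the replication fork, of deoxynucleotide synthesis and of G1/S control. Of 32 replication fork genes 16 were in the table, all 16 lower, with a median of -0.52, and RPA3, a subunit of the single-strand binding protein RPA, was 1.66-fold lower and the primase PRIM1 1.65-fold lower. RNASEH2A, RFC3 and DSCC1 were 1.61-fold, 1.59-fold and 1.58-fold lower. Of 12 deoxynucleotide synthesis genes 7 were in the table, all 7 lower, with a median of -0.67. Centring left all 16 and all 7 lower. Of 23 genes of G1/S control 9 were in the table, 8 lower and 1 higher, with a median of -0.44. Cyclin A2 (CCNA2) and MYBL2 were 2.18-fold and 1.78-fold lower, the E2F repressors E2F8 and E2F7 1.46-fold and 1.38-fold lower, and the kinase inhibitor CDKN1A 1.61-fold higher. CDKN1B, another kinase inhibitor of this list, was 1.36-fold lower and was named after its value was seen. E2F1, an activator of licensing genes named after its value was seen, stood at 38.0 and 29.1 FPKM.

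Ratios of mitotic genes lay farther below 0 than those of the 9 genes. All 35 mitotic genes of the list were in the table, with a median of -1.11, and 34 were at least 1.5-fold lower. Of the 1768 genes 18.6% were. The list was chosen with earlier results of these data known, and 39.1% to 58.3% of the other lists were in the table. Its distance from the 9 genes is therefore a description only. The smallest difference among the 35 mitotic genes was that of CKS2, at -0.29, which is nearer to 0 than every one of the 9 genes. CKS2 was singled out after its value was seen. CDC45, the lowest of the 9, was nearer to 0 than each of the other 34. After centring 34 of the 35 mitotic genes were lower, with CKS2 at 0.043, and the medians were -0.087 for the 9 genes and -0.79 for the mitotic genes. No test of this difference was made, since genes are not replicates. EZH2 stood at 26.2 and 18.4 FPKM with a ratio of -0.48, between the 4 genes with lower ratios (CDC45, GINS4, CDT1 and GINS1) and the 5 with higher ones.

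**Figure D5:**
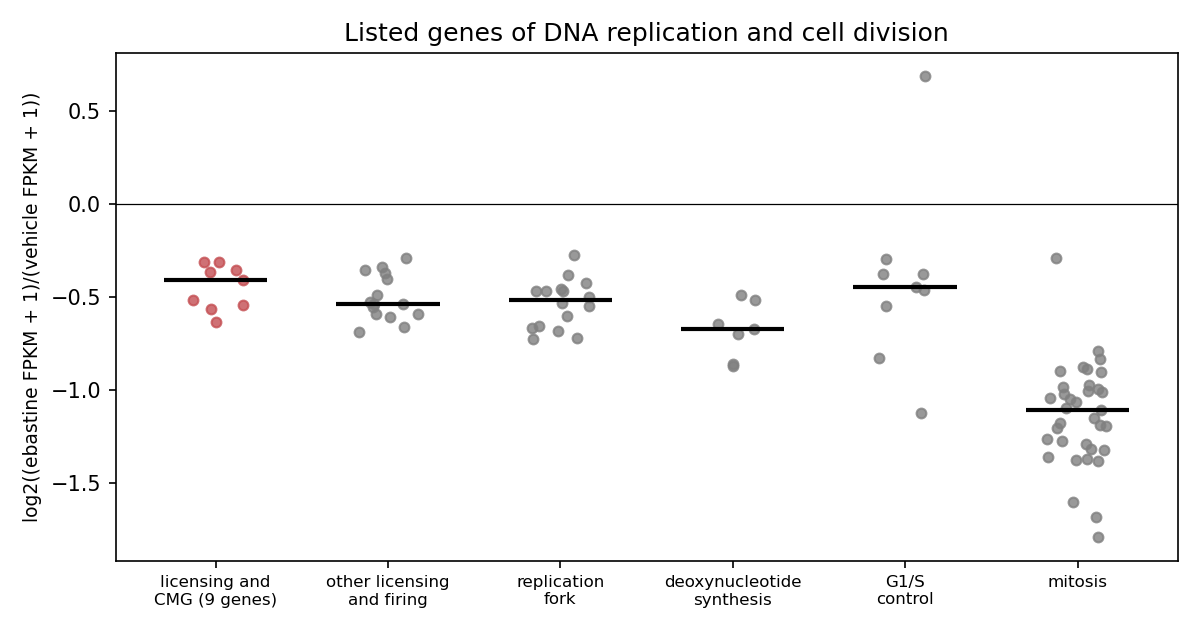
Log2 ratio of ebastine over vehicle (y axis) for the 9 licensing and CMG genes (coloured points) and the genes of 5 other lists that are in the table, with the bar at the median of each list. The medians are -0.41 for the 9 genes, -0.54 for other licensing and firing genes, -0.52 for fork genes, -0.67 for deoxynucleotide synthesis, -0.44 for G1/S control and -1.11 for mitosis.

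The genes nearest to the median levels of the 9 genes in both libraries were TEX30 (28.7 and 20.2 FPKM), BC107568 (28.2 and 18.8 FPKM) and NDC1 (29.2 and 18.99 FPKM). Nearness was the Euclidean distance in log2(FPKM + 1) over 2 libraries, which ran from 0.0444 to 0.0564, and 2 libraries give it little meaning.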

How the data were processed

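TopHat2, Cuffdiff and hg19 are named without versions, per the submitters' processing notes. The authors' deposited table has a Cuffdiff layout with FPKM values per gene for 1 vehicle and 1 ebastine library, the authors' log2 fold change (copied but not printed), and a deposited p-value with its q-value. No source used here states the gene models, the strand setting or the scaling. Every gene listed has a p-value of at most 0.0499, and the q-values correspond to 13714 tested genes. The authors' p-values compare 2 libraries, not conditions. Ratios were computed with a pseudocount of 1 FPKM, and counts over all genes used a minimum mean of 1 FPKM (Python 3.11.15, pandas 2.3.3, NumPy 2.4.6, Matplotlib 3.10.9). The calculation was first run on values changed by a known amount without noise, which checks the arithmetic and not the spread between libraries. Locus starts count from 0 and were raised by 1. Motifs were searched by exact letters. Pseudocount, scaling, minimum mean and fold limit were varied. The 9 genes and the lists were chosen with earlier results of these data known. Beside the 9 genes, the text names up to 5 genes per list with the largest absolute ratio, every listed MCM, ORC, CDC6, GMNN, CDC7 and DBF4 gene, the 3 nearest genes and EZH2. For the mitotic and deoxynucleotide lists only counts and medians are given, and CKS2, E2F1 and CDKN1B were named outside this rule, after their values were seen. Protein sequences planned for GINS and MCM2 are not used here.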

Additional observations from a re-analysis of the deposited data

How the results depend on the processing

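The median log2 ratio of the 9 genes, -0.41, was -0.42 with a pseudocount of 0.1 FPKM, -0.43 with none, -0.35 with a pseudocount of 5 FPKM, -0.21 after upper quartile rescaling and -0.087 after centring, and -0.41 with equal sums. The 1 gene at least 1.5-fold lower became 2, CDC45 and GINS4, with a pseudocount of 0.1 FPKM or none. The count was 0 with a pseudocount of 5 FPKM, 0 after upper quartile rescaling and 0 after centring. It was 7 at the lower fold limit tried and 0 at a limit of 2-fold. The share of the 1768 genes past the limit was 18.6% in the main setting, 24.4% with a pseudocount of 0.1 FPKM, 25.3% with none, 10.1% with a pseudocount of 5 FPKM, 10.4% after upper quartile rescaling, 6.90% after centring, 50.2% at the lower fold limit and 4.86% at 2-fold. All 9 genes were lower under each alternative except centring, which left 8, with MCM4 at 0.015. Of 54 gene ratios recomputed over the 6 pseudocount and scaling alternatives, 53 kept their direction. A pseudocount added to both libraries cannot change a direction, and equal sums multiplies the ebastine values by only 1.001. Upper quartile rescaling moves a ratio by at most 0.205 on the log2 scale, less than the smallest absolute ratio of the 1768 genes, 0.234. Only centring could have turned a ratio, so the count of 53 says little about robustness. The minimum mean changed nothing for the 9 genes, since the lowest mean, that of GINS3, was 7.10 FPKM. No paired analysis was possible because each group holds 1 library. Leaving out a library was not possible either. The depth is unknown, and the smallest differences, those of GINS3 and MCM4, have no error to be set against.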
